A study of Capra hircus with 3 samples.

Results

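Tight junctions are belts of contact near the apical side of epithelial cells that close the space between neighbouring cells. Claudins and occludin form the strands in the membrane, and the zonula occludens proteins tie these strands to the actin cytoskeleton. The junctional adhesion molecules are further membrane proteins of the junction. In the lactating mammary gland, closed tight junctions between alveolar cells keep milk lactose from leaking into blood and sodium from leaking into milk. The expression of 9 genes of this barrier was described here. They were the claudins CLDN1, CLDN3, CLDN4, CLDN7 and CLDN8, occludin (OCLN), the adhesion molecule F11R, and the zonula occludens proteins TJP1 (ZO-1) and TJP3 (ZO-3). The members were taken by name, each was found under its NCBI gene ID at 1 locus, and they are 9 of 13023 protein-coding genes with a value.

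Mammary tissue of healthy Laoshan dairy goats, 4 years old and in the third lactation, was sampled by surgery at 10, 90 and 210 days after parturition, the early, peak and late stages. All goats were untreated apart from anaesthesia, and the total RNA of 5 goats was pooled into 1 library per stage. The study describes 5 goats in all, sampled at each stage, so the pools share their animals. The values are FPKM, in which fragment counts are divided by transcript length and by the mapped reads of the library, so that genes can be compared per length. With 1 pooled library per stage, neither the spread between goats nor that between replicates is known. No difference below therefore has a test, and the number of reads behind each value is unknown.

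The libraries labelled peak and late stood in doubt. Among lncRNA genes in the study's supplementary list, most ran in the other direction between its P and L libraries than between the columns labelled peak and late. In this respect these columns behaved as if exchanged. The names used here are those of the labels, which alone assign the columns to stages. With the columns exchanged, the values given for peak over early would be those for late over early and the reverse, and each ratio of late over peak would change sign, with CLDN8 at -1.21 and CLDN1 at 1.78 on the log2 scale. In addition, LALBA, the milk protein alpha-lactalbumin, stood at 0 in the late library, so a listed 0 does not show that a gene was silent.

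CLDN7, an epithelial claudin found along the lateral membrane, was the member with the highest level in the libraries labelled early and late. Its level was 41.1 FPKM in the library labelled early, 29.1 FPKM in that labelled peak and 52.9 FPKM in that labelled late. CLDN4, a barrier-forming claudin, had 32.6, 39.3 and 35.9 FPKM in the same order. It was thus the member with the highest level in the library labelled peak, and its values lay close together. CLDN3, which like CLDN4 is a receptor of the Clostridium perfringens enterotoxin, had 23.1, 16.8 and 30.9 FPKM. It was lowest in the library labelled peak and highest in that labelled late, as CLDN7 was.

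CLDN8, a barrier-forming claudin of tight epithelia, had 17.9 FPKM in the library labelled early, 7.82 FPKM in that labelled peak and 18.1 FPKM in that labelled late. The libraries labelled early and late were nearly equal, and that labelled peak was low. CLDN1, the claudin that the skin barrier depends on, had 3.86, 7.51 and 2.18 FPKM. Its order was the opposite of that of CLDN8, with the highest value in the library labelled peak, and it had the lowest level of the 9 genes in all 3 libraries.

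OCLN, a membrane protein of the strands that is no claudin, had 27.8 FPKM in the library labelled early, 16.6 FPKM in that labelled peak and 30.7 FPKM in that labelled late. F11R, the immunoglobulin-like junctional adhesion molecule A, had 36.8, 28.04 and 43.0 FPKM. Both were lowest in the library labelled peak. TJP1, the scaffold to which claudin tails bind, had 20.7, 18.3 and 23.5 FPKM. TJP3, a related scaffold of epithelial cells, had 30.0, 21.8 and 31.7 FPKM. Both scaffolds had the same order of libraries as OCLN, and TJP1 had the narrower range.

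**Figure D1:**
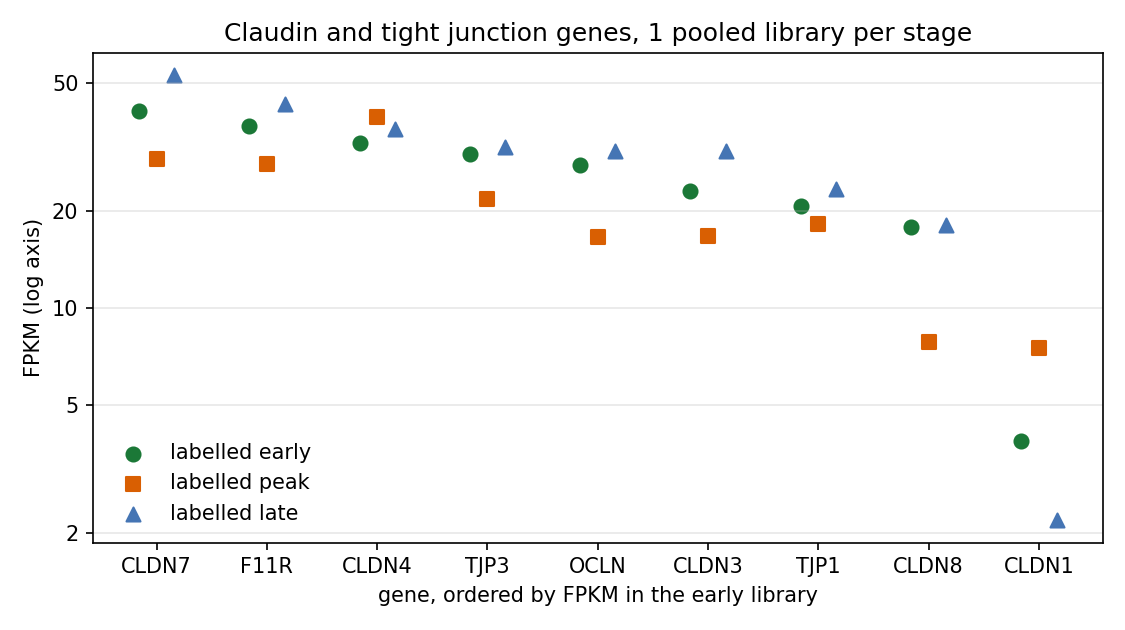
FPKM (log axis) of the 9 genes in the early, peak and late libraries, 1 point per pooled library and without error bars, since there are no replicates. In 7 of the 9 genes the square of the library labelled peak is the lowest point, while it is the highest for CLDN4 and CLDN1.

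In the library labelled early, the order from high to low was CLDN7, F11R, CLDN4, TJP3, OCLN, CLDN3, TJP1, CLDN8 and CLDN1. Neighbours in this order were 1.08 to 1.20 times apart down to CLDN8, and CLDN8 was 4.63 times above CLDN1. In the library labelled peak, the steps were 2.12-fold between OCLN and CLDN8 and 1.04-fold between CLDN8 and CLDN1, and those above OCLN were at most 1.35-fold. In the library labelled late, the steps were at most 1.31-fold down to CLDN8, which stood 8.31 times above CLDN1. Without replicates, no pair of neighbours can be said to differ beyond its spread. The whole range over the 9 genes was 10.7-fold in the library labelled early, 5.23-fold in that labelled peak and 24.2-fold in that labelled late.

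Most of the genes lay high among protein-coding genes, with the exception of CLDN1 and, in the peak library, of CLDN8. The median over the 9 genes was 27.8 FPKM in the library labelled early, 18.3 FPKM in that labelled peak and 30.9 FPKM in that labelled late. The median over protein-coding genes above 0 was 7.05, 7.23 and 6.92 FPKM. For CLDN7, 7.54%, 9.07% and 5.67% of these genes had a higher FPKM in the early, peak and late libraries. For CLDN8 the share was 21.5%, 46.9% and 21.7%, and for CLDN1 it was 67.2%, 48.6% and 77.6%. CLDN8 and CLDN1 thus had nearly the same place in the library labelled peak and distant places in the others.

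In early against peak, 7 of the 9 genes were lower in that labelled peak, against 49.5% of 12937 protein-coding genes above 0 in both. The median log2 ratio was -0.46 over the 9 genes and 0.01 over the protein-coding genes. The log2 ratio was -1.19 for CLDN8, -0.74 for OCLN, -0.50 for CLDN7, -0.46 for CLDN3 and for TJP3, -0.39 for F11R and -0.18 for TJP1. It was 0.27 for CLDN4 and 0.96 for CLDN1. At a ratio of at least 2, CLDN8 was the single member called apart, 2.29-fold lower in the library labelled peak, and CLDN1, 1.95-fold higher, lay just under this limit. This 1 of 9 genes is 11.1%, a share near the 17.2% of protein-coding genes above 0 in both libraries and the 12.5% of those with at least 1 FPKM in both, and it is no result about these genes.

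The size of these differences depended on how the libraries were put on one scale. Scaling to the protein-coding FPKM without the 20 genes of highest level moved the median of all protein-coding genes by 0.27 on the log2 scale, from 0.01 to 0.28. On this scale the median of the 9 genes was -0.19, CLDN8 stood at -0.92 and CLDN1 at 1.24, so that CLDN1 and not CLDN8 passed the 2-fold limit, and TJP1 turned to 0.09. Centring on luminal epithelium markers gave -0.96 for CLDN8, 1.19 for CLDN1 and 0.05 for TJP1, and centring on EPCAM gave -0.82, 1.34 and 0.19. Centring on CDH1 gave -1.40, 0.76 and -0.39, and centring on the keratin KRT8 gave -1.83, 0.32 and -0.82. In all of these scalings CLDN8, OCLN, CLDN7, CLDN3, TJP3 and F11R were lower in the library labelled peak, though F11R stood at -0.02 relative to EPCAM. CLDN1 was higher in all of them, and CLDN4 in all but that on KRT8, where it stood at -0.37. Relative to KRT8, 6 of the 9 genes were at least 2-fold lower, but this scale moves the median of protein-coding genes to -0.63, and 28.8% of them were then 2-fold apart in either direction.

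**Figure D2:**
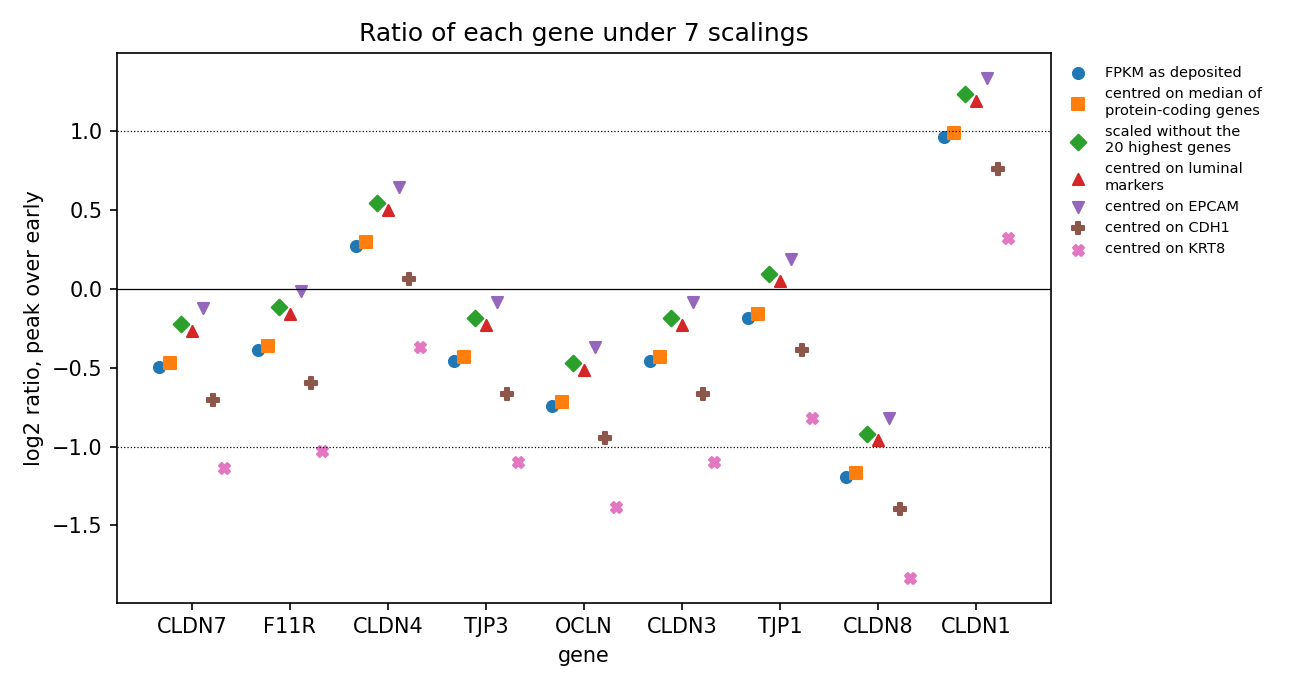
Log2 ratio of the library labelled peak over that labelled early (vertical axis) for each of the 9 genes under 7 scalings, 1 symbol per scaling, with dotted lines at a ratio of 2. The scalings shift all genes together: CLDN8 runs from -1.83 to -0.82, CLDN1 from 0.32 to 1.34, and TJP1 lies on either side of 0.

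In early against late, 8 of the 9 genes were higher in that labelled late, against 46.3% of 12777 protein-coding genes, but by small amounts. The median log2 ratio was 0.14 over the 9 genes and -0.03 over protein-coding genes. CLDN3 had 0.42 and CLDN7 had 0.37 as the highest log2 ratios, and CLDN8 had 0.02. CLDN1 ran the other way, with a log2 ratio of -0.82. None of the 9 genes reached a ratio of 2, against 7.08% of protein-coding genes above 0 in both libraries and 2.88% of those with at least 1 FPKM in both. Relative to CDH1, 6 of the 9 genes were higher, against 34.6% of protein-coding genes, and relative to KRT8, which shifts the median of protein-coding genes to -0.32, 2 of the 9 were, against 13.9%, with a median of -0.15.

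In peak against late, 7 of the 9 genes were higher in that labelled late, against 48.8% of 12807 protein-coding genes. The median log2 ratio was 0.62 over the 9 genes and -0.02 over protein-coding genes. CLDN8 was 2.32-fold higher and CLDN1 3.44-fold lower in the library labelled late, and these were the members called apart. They were 22.2% of the 9 genes, and 24.7% of protein-coding genes above 0 in both and 18.0% of those with at least 1 FPKM in both were called. OCLN, with a ratio of 1.85, and CLDN3, with 1.84, were the nearest members under the limit. With the sum scaled without the 20 highest genes, CLDN8 had a log2 ratio of 0.96 and CLDN1 of -2.04, so that CLDN1 alone was called. Relative to KRT8, where the median of protein-coding genes was 0.33, 5 of the 9 genes and 27.0% of protein-coding genes were called. The 3 comparisons share libraries, and their values are no independent support for each other.

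**Figure D3:**
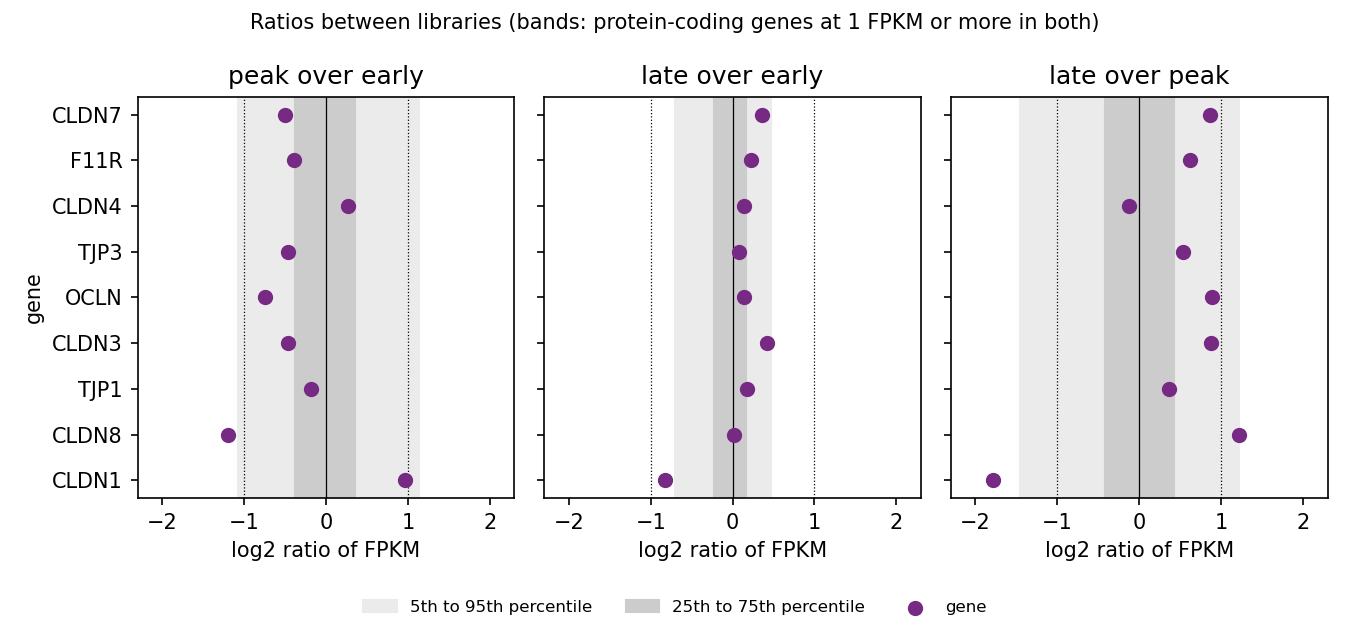
Log2 ratio of FPKM of each of the 9 genes in the 3 comparisons, with the central 50% (dark band) and 90% (light band) of protein-coding genes at 1 FPKM or more in both libraries and dotted lines at a ratio of 2. CLDN8 at -1.19 and CLDN1 at 0.96 stand at opposite ends for peak over early, and 8 of the 9 points lie right of 0 for late over early.

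The make-up of the claudin mRNA within a library does not depend on the scaling between libraries. Over the 10 claudins with a value, the FPKM sum was 129 in the library labelled early, 110 in that labelled peak and 150 in that labelled late. CLDN3, CLDN4 and CLDN7 together made up 75.02%, 77.1% and 79.8% of it. Within these 3 the balance differed, since CLDN7 had 31.8%, 26.3% and 35.3% and CLDN4 had 25.3%, 35.6% and 24.0%. The share of CLDN1 was 2.99%, 6.80% and 1.45%, and that of CLDN8 was 13.9%, 7.08% and 12.1%. CLDN8 was thus 4.63 times CLDN1 in the library labelled early, 1.04 times in that labelled peak and 8.31 times in that labelled late. The FPKM of CLDN3 was 0.708, 0.427 and 0.858 times that of CLDN4.

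**Figure D4:**
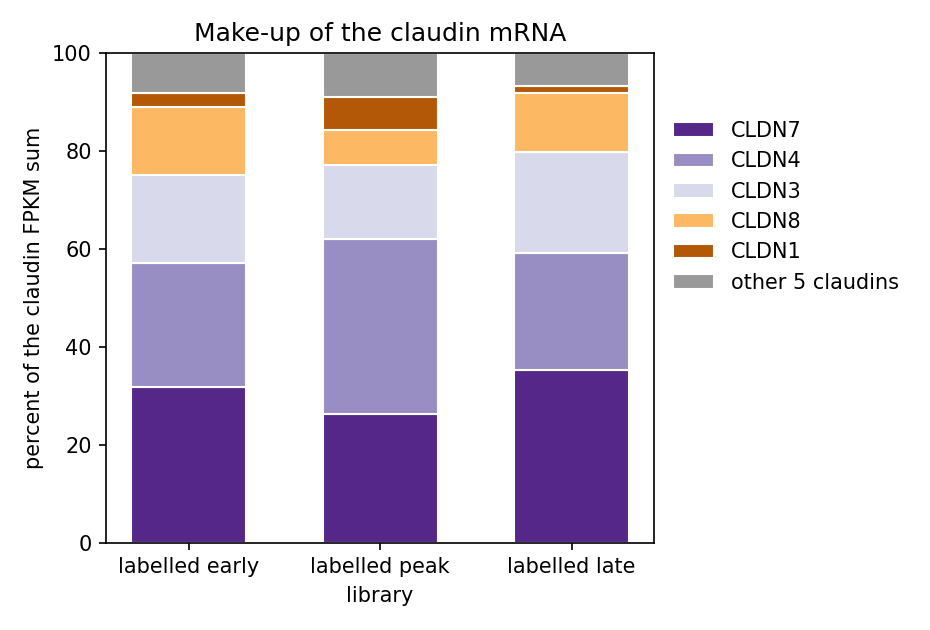
Percent of the FPKM sum of 10 claudins (vertical axis) taken by each claudin in each library, with the 5 claudins that are no members summed. CLDN4 takes 35.6% and CLDN1 6.80% in the library labelled peak, above their shares in both other libraries, and CLDN8 takes 7.08%, below its other shares.

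CLDN3 and CLDN4 are neighbours. On scaffold NW_005100934.1 (the files do not name their assembly, and the study names more than one goat reference), CLDN4 was listed from 30958346 to 30959812 and CLDN3 from 30989429 to 30990528, with 29616 nt and no other listed locus between them. CLDN3 was lower and CLDN4 higher in the library labelled peak than in that labelled early. CLDN8 was listed on NW_005100583.1 from 4959503 to 4961612 and CLDN1 on NW_005100603.1 from 12116256 to 12134024, both with no other listed locus within 20 kb. CLDN7 was listed on NW_005100886.1 from 2831840 to 2834668, 108 nt from ELP5, a subunit of the Elongator complex. ELP5 had 12.9, 11.3 and 11.4 FPKM in the early, peak and late libraries, and its highest value was in the early library. TJP3 was listed on NW_005100715.1 from 542346 to 572386, 87 nt from APBA3, which had 9.14, 7.87 and 7.96 FPKM. OCLN was listed on NW_005100889.1 from 388931 to 436108, TJP1 on NW_005100901.1 from 3358547 to 3472420 and F11R on NW_005100629.1 from 359622 to 383001. None of the 9 loci overlapped another listed locus.

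Of 19 other claudins, 5 had a value, and the others were not analysed here. CLDN12 had the highest level of the 5, with 5.48, 3.31 and 6.70 FPKM in the early, peak and late libraries, the order that CLDN7 had. CLDN23 had 1.65, 2.64 and 1.26 FPKM, the order that CLDN1 had, and CLDN15, a channel-forming claudin, had 1.58, 1.95 and 1.28 FPKM. Named after their values were seen, CLDN10, which forms paracellular ion channels, had 1.35, 0.542 and 0.424 FPKM, and CLDN11, the claudin of myelin and of Sertoli cells, had 0.435, 1.49 and 0.361 FPKM. At a ratio of 2, CLDN11 was higher and CLDN10 lower in the peak than in the early library. CLDN10 was lower in the late than in the early one, and 3 of the 5 were apart for peak against late. Of protein-coding genes, 17.2%, 7.08% and 24.7% were called for early against peak, early against late and peak against late. Each claudin call against the early library had a value under 1 FPKM on 1 side. Once genes under that level on either side were set aside, 0 claudins were called against the early library. For peak against late, 2 of the 3 claudins left were called. The 5 together had 8.14%, 9.001% and 6.67% of the claudin FPKM.

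Among other membrane proteins of the tight junction, 8 of 11 with a value were lower in the library labelled peak than in that labelled early. Their median log2 ratio was -0.24, and 49.5% of protein-coding genes were lower. Scaled without the 20 highest genes, 5 of 11 were lower, with a median of 0.04. On that scale 30.1% of protein-coding genes were lower, with a median of 0.28. IGSF5, the junctional adhesion molecule 4, had 31.5, 13.7 and 42.8 FPKM, a level like that of the members. JAM3, which the gene table classes as a lncRNA, had 13.7, 5.73 and 14.0 FPKM. CXADR, the coxsackievirus and adenovirus receptor, ran the other way, with 6.07, 15.1 and 4.80 FPKM. These 3 were at least 2-fold apart for early against peak and again for peak against late. CRB3, an apical polarity protein, had 11.3, 9.65 and 14.6 FPKM, and LSR, which recruits tricellulin to the corners between cells, had 11.4, 9.68 and 13.3 FPKM. ILDR2, named after its values were seen, was the other gene called, with 0.306, 1.02 and 0.135 FPKM, and the single gene of this list called for early against late.

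Among plaque and polarity proteins, 17 of 25 with a value were lower in the library labelled peak than in that labelled early. Their median log2 ratio was -0.30, and 49.5% of protein-coding genes were lower. Scaled without the 20 highest genes, 13 of 25 were lower, with a median of -0.03. On that scale 30.1% of protein-coding genes were lower, with a median of 0.28. CGN, cingulin, which links the plaque to myosin, had 24.7, 11.03 and 25.1 FPKM, and MAGI2, a scaffold, had 3.85, 1.18 and 3.37 FPKM. These were the genes of the list called for early against peak, and both were also called for peak against late, together with PARD6G and ARHGEF2, which were higher in the library labelled peak. PARD6G had 1.34, 2.61 and 1.0003 FPKM, and ARHGEF2, a RhoA activator held at the junction, had 9.16, 14.7 and 7.10 FPKM. YBX3, which binds ZO-1, had 42.6, 32.7 and 33.9 FPKM, and PATJ, a polarity scaffold, had 32.7, 28.8 and 34.8 FPKM. None of the 25 was 2-fold apart for early against late.

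Genes of other cell junctions had other counts. Of 10 adherens junction genes, 5 were lower and 5 higher in the library labelled peak than in that labelled early, with a median log2 ratio of -0.08. CTNNB1, beta-catenin, had 95.5, 112 and 87.2 FPKM, CTNNA1, alpha-catenin, had 68.1, 81.4 and 69.0 FPKM, and CDH1, E-cadherin, had 34.5, 39.8 and 36.7 FPKM. These 3 were highest in the library labelled peak. NECTIN3, an adhesion molecule, had 7.91, 23.1 and 5.87 FPKM, the widest range in this list among genes with at least 1 FPKM. Of 11 desmosome genes with a value, 8 were higher in the library labelled peak than in that labelled early, against 50.5% of protein-coding genes. Their median log2 ratio was 0.35. Scaled without the 20 highest genes, 10 of 11 were higher, against 69.9% of protein-coding genes. Relative to KRT8, 2 of 11 were higher, against 19.0%. PERP had 33.7, 51.2 and 33.5 FPKM, DSG2 had 24.6, 21.1 and 29.3 FPKM, and DSP, desmoplakin, had 24.5, 21.8 and 27.3 FPKM. PKP2, a plaque protein, was 2.41-fold higher in the library labelled late than in that labelled peak. Of 5 gap junction genes with a value, none was 2-fold apart, and GJA1, connexin 43, had 28.4, 24.1 and 42.3 FPKM, GJA4 had 2.94, 4.64 and 4.08 FPKM and GJC1 had 1.64, 2.41 and 2.24 FPKM. Whether the lists differ was not tested.

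**Figure D5:**
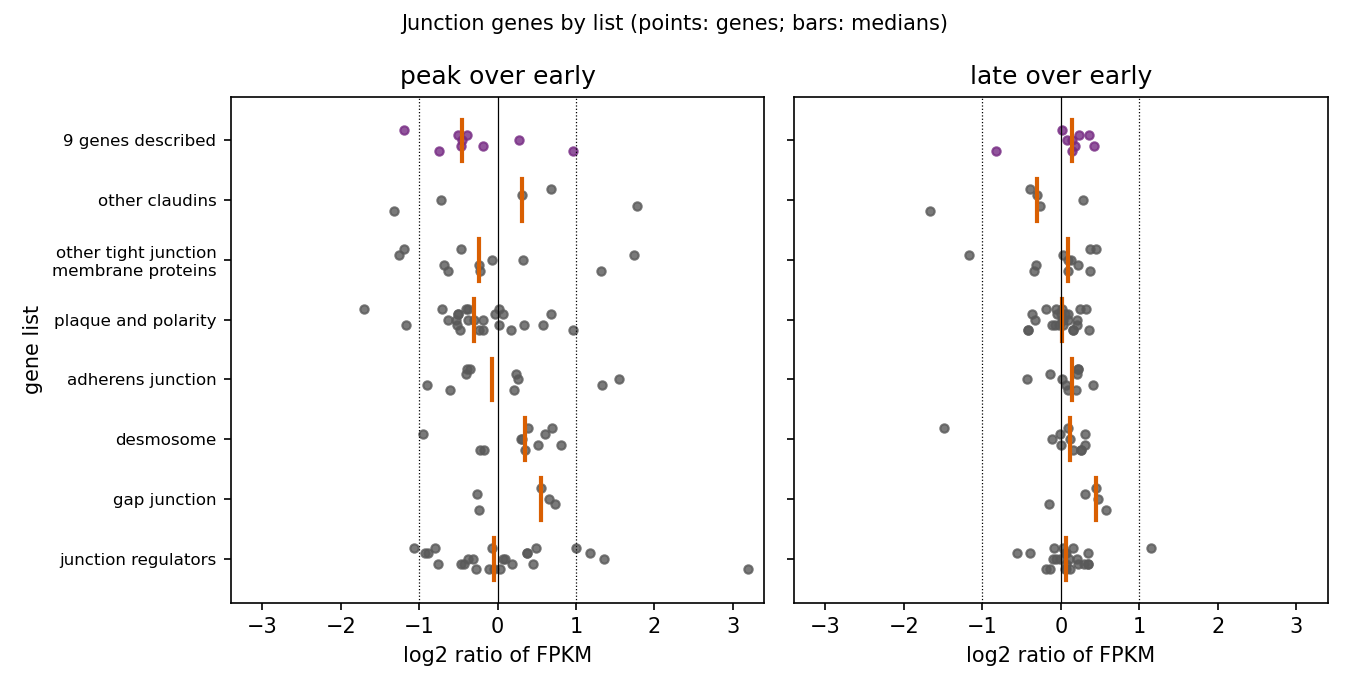
Log2 ratio of FPKM of each gene (points) and the median (bars) by list, for peak over early and late over early, with dotted lines at a ratio of 2. For peak over early the medians run from -0.46 for the 9 genes to 0.35 for desmosome and 0.56 for gap junction genes.

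Among 25 regulators of junctions with a value, 13 were lower and 12 higher in the library labelled peak than in that labelled early. Scaled without the 20 highest genes, 9 were lower and 16 higher, and 69.9% of protein-coding genes were higher. Relative to KRT8, 21 were lower and 4 higher, and 81.0% of protein-coding genes were lower. These counts lie near the shares over protein-coding genes and are no result about the regulators. SPINT2, an inhibitor of membrane-bound serine proteases, had 226, 163 and 245 FPKM. ST14, matriptase, one of these proteases, had 47.6, 25.8 and 47.3 FPKM, and PRSS8, prostasin, which acts with matriptase, had 46.3, 22.0 and 48.0 FPKM. All 3 were lowest in the library labelled peak, and PRSS8 was called apart from both others. ELF3, an epithelial transcription factor, had 8.49, 19.2 and 5.79 FPKM and TWIST1, a mesenchymal one, had 2.91, 7.49 and 3.69 FPKM, both highest in the library labelled peak and at least 2-fold apart from both others. ZEB2, a repressor of epithelial genes, had 5.39, 10.7 and 4.10 FPKM, 2.62-fold lower in the library labelled late than in that labelled peak, and LNX1, a ubiquitin ligase, had 5.35, 3.09 and 6.82 FPKM, 2.21-fold higher. Over the 7 lists beside the 9 genes, 14 of 92 genes with a value were 2-fold apart for early against peak, 4 of 91 for early against late and 20 of 91 for peak against late. These are 15.2%, 4.4% and 22.0%, close to or under the 17.2%, 7.08% and 24.7% over protein-coding genes.

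Markers of the epithelium and of other cells also differed between the libraries, and in a tissue homogenate fewer cells of a type and less RNA per cell cannot be told apart. All 6 milk protein genes with a value were lower in the library labelled peak than in that labelled early, with a sum of 209928, 59968 and 155885 FPKM in the early, peak and late libraries. Without LALBA, at 0 in the late library, the sum was 139875, 44754 and 155885 FPKM, so that late lay above early. Of 8 luminal epithelium markers, 5 were lower and 3 higher in the library labelled peak than in that labelled early, and the sum was 1814, 1201 and 1730 FPKM. Without ELF5 the sum was 934, 958 and 855 FPKM, and so was no lower in the peak library than in the early one. Of the markers left in it, EPCAM, EHF, MUC1 and KRT19 were each lower in the peak library, and KRT7, KRT8 and KRT18 were higher. ELF5, a factor of alveolar cells, had 879, 244 and 875 FPKM and EPCAM had 77.8, 60.0 and 76.4 FPKM, while KRT8, a luminal keratin, had 126, 196 and 154 FPKM. Relative to EPCAM, 6 of the 9 genes were lower in the library labelled peak than in that labelled early, against 24.8% of protein-coding genes. Most of these differences were small, since F11R, TJP3, CLDN3 and CLDN7 lay between -0.017 and -0.125 on the log2 scale. The median of the 9 genes was -0.086 and that of protein-coding genes 0.38. Relative to KRT8, 8 of the 9 genes were lower, but so were 81.0% of protein-coding genes.

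Of 6 lymphocyte and plasma cell markers, 5 were higher in the library labelled peak than in that labelled early, and CD3E was listed at 0 in both. The sum was 288, 485 and 348 FPKM, most of it JCHAIN, and PTPRC (CD45) had 17.6, 39.9 and 8.08 FPKM. All 5 macrophage and myeloid markers with a value were higher in the library labelled peak than in that labelled early, against 50.5% of protein-coding genes. Of these, CD14 (12.4 and 12.5 FPKM) and ITGAM (2.29 FPKM in both) were nearly equal in the early and peak libraries. AIF1 (20.3 and 31.7 FPKM) and CSF1R (16.6 and 25.6 FPKM) differed most. The sum of the 5 was 55.1, 75.9 and 32.7 FPKM. The sum of 7 myoepithelium markers was 278, 269 and 287 FPKM, that of 7 endothelium markers 148, 139 and 160 FPKM, that of 7 fibroblast markers 680, 574 and 561 FPKM and that of 4 adipocyte markers 21.2, 7.82 and 10.5 FPKM. The fibroblast markers did not move together, with 4 lower and 3 higher in the library labelled peak than in that labelled early. COL3A1 had 255 and 123 FPKM in these 2 libraries, while DCN had 131 and 254 FPKM. Erythrocyte markers were not analysed here. The part of cell composition in the values of the 9 genes was not tested.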

How the data were processed

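Total RNA of the same 5 goats, sampled at each stage, was pooled into 1 stranded library per stage. The authors mapped trimmed reads to the goat genome with TopHat2 2.0.9, assembled transcripts with Cufflinks 2.1.1 and Cuffmerge, and deposited FPKM from Cuffdiff for 50041 loci in 1 column per library, which the labels assign to a stage. Of the values above 0, 43.4% (early), 47.1% (peak) and 43.1% (late) had over 6 digits, and 95.9%, 99.4% and 97.3% of these ended in 5, the form a mean of 2 shorter numbers takes, and averaging is not given in the sources used here.

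FPKM of loci with one NCBI gene ID were summed, and symbols came from a RefSeq gene table (assembly ARS1.2), whose coordinates were not used. Ratios were taken from FPKM above 0 in both libraries, and a ratio of at least 2 was called. The study compared transcripts by Cuffdiff on FPKM. For lncRNAs it also describes a separate call of differences, by FDR and a fold change of 2 or more. With 1 library per stage there is no replicate spread, so no test was run here. FPKM from short loci or shared with unlisted copies can be off, and strand use in counting is not stated. The members and lists were chosen with earlier results of these data known. Named from each list were the 3 genes of highest mean FPKM and those 2-fold apart in any comparison with 1 FPKM or more on either side. Of the genes this rule names, 1 is not reported here. Depth per gene is unknown. Python 3.11.15, numpy 2.4.6, pandas 2.3.3 and matplotlib 3.10.9 were used.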

Additional observations from a re-analysis of the deposited data

How the results depend on the processing

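With the columns labelled peak and late exchanged, the median log2 ratio of the 9 genes reversed, to 0.14 for peak over early, -0.46 for late over early and -0.62 for late over peak. CLDN8 then had 0.022 for peak over early and -1.21 for late over peak, and CLDN1 had 1.78 for late over peak. The number lower in peak than in early was 1, that higher in late than in early 2 and that higher in late than in peak 2. Then 0 of the 9 genes were 2-fold apart for peak over early and 1 for late over early, against 7.08% and 17.2% of protein-coding genes. In the order of levels, 6 genes changed place in each of the libraries labelled peak and late. Of the 7 other lists, 4 genes were then apart for peak over early and 14 for late over early. At a ratio of 1.5, 3, 1 and 6 of the 9 genes were apart for peak over early, late over early and late over peak, against 36.4%, 16.3% and 43.1% of protein-coding genes, and 35 and 46 genes of the other lists for the first and last. At a ratio of 4, 0 of the 9 genes were apart for peak over early and 0 for late over peak, against 2.94% and 7.18% of protein-coding genes. Of the other lists, 1, 0 and 4 genes were apart in the 3 comparisons. With a pseudocount of 1, 9, 0 and 11 genes of the other lists were apart, and the median of the 9 genes was -0.44 for peak over early and 0.60 for late over peak. At least 1 FPKM in both libraries left 9 genes of the other lists for peak over early and 0 for late over early.

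The median of the 9 genes was -0.43, 0.16 and 0.58 for the 3 comparisons when centred on the median of protein-coding genes, -0.19, 0.16 and 0.36 when scaled without the 20 highest genes, -0.23, 0.19 and 0.54 when centred on the luminal epithelium markers, -0.086, 0.17 and 0.27 when centred on EPCAM and -0.66, 0.057 and 0.73 when centred on CDH1. Centred on KRT8 it was -1.10, -0.147 (reversed) and 0.96. On this scale 6, 1 and 5 of the 9 genes were apart, against 28.8%, 9.99% and 27.0% of protein-coding genes. Of all 9 genes, 2 were higher by any amount in late than in early, against 13.9% of protein-coding genes. Of the other lists, 35 genes were apart for peak over early. Scaling without the 20 highest genes and centring on EPCAM each left 1 of the 9 genes apart for late over peak, against 26.7% and 28.2% of protein-coding genes. A pseudocount of 0.1 changed no count of 2-fold calls for the 9 genes, and each of them has 1 locus, so taking the highest locus alone could not. EPCAM, CDH1 and KRT8 were chosen as references after seeing the data, as were the sums without LALBA or ELF5 and the counts of genes lower or higher by any amount. The cause of these shifts was not tested. The pools share their goats, but no paired analysis was possible because a stage is represented by a single pooled library. For the same reason no library could be left out within a stage. Depth limits CLDN1 and the genes near 1 FPKM to an unknown extent.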
